A study of Mus musculus with 24 samples.

Results

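Histone H3 lysine 4 methylation peaks were described at 8 genes that encode neuroectoderm transcription factors: Pax6, Sox1, Lhx2, Olig2, En2, Gbx2, Pax7 and Zic1. These 8 of the 21887 protein-coding genes in the RefSeq gene table (GRCm38.p6) are a named list, chosen by earlier KO and WT peak calls of these same libraries, those of embryoid bodies included. Genotype differences in embryoid bodies are therefore given as a description with no test. For each gene, peaks were counted over the gene span and within 2500 bp and 10 kb of either gene end, and the base pairs covered by peaks were summed over the span with 10 kb on each side. The study profiled PRDM16, H3K4me1 and H3K4me2 by CUT&RUN, in which an antibody-tethered nuclease releases the chromatin fragments to be sequenced. The compared groups were Prdm16 KO embryoid bodies at day 6 (EB), wild-type (WT) EB at day 6, Prdm16 KO mouse embryonic stem (ES) cells and WT ES cells, all of C57BL/6 background. Each antibody, stage and genotype had 2 libraries, which gave 24 libraries in 12 groups, and 16 of the lists were of H3K4me1 or H3K4me2. The labels do not give the deleted part of Prdm16 or the number of KO clones. They also do not say that replicate libraries were made from different cultures, so a p-value measures only the spread between libraries, which may be technical.

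Neuroectoderm is the embryonic layer that gives rise to the brain and spinal cord, and embryoid bodies, which are aggregates of differentiating ES cells, can form it beside mesoderm and endoderm. Its cells are patterned by transcription factors that act along the head-to-tail and back-to-belly axes. H3K4me1 marks mainly enhancers, both primed and active, and H3K4me2 marks enhancers and the flanks of promoters. PRDM16, of the PRDM family of zinc finger proteins, has been linked to histone methylation and is known for roles in brown fat, blood stem cells and neural progenitors.

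The start sites of 5 genes are shown because their peak lists differed in kind. The sequences are RefSeq promoters on GRCm38.p6, each running from 250 bases before to 50 bases after an annotated start, 5′ to 3′ on the gene's strand, with CG dinucleotides in capitals. The Lhx2 window (chr2:38339031-38339330, plus strand) held an H3K4me2 peak in both EB KO lists, neither EB WT list and all 4 ES lists. The Olig2 window (chr16:91225300-91225599, plus strand) held one in 1 EB KO list only, the Pax7 window (chr4:139832919-139833218, minus strand) in 1 EB KO list and both ES WT lists, and the Zic1 window (chr9:91365719-91366018, minus strand) in all 4 ES lists and no EB list. The Sox1 window (chr8:12395269-12395568, plus strand) held no peak of either mark in any of the 16 lists.
Lhx2: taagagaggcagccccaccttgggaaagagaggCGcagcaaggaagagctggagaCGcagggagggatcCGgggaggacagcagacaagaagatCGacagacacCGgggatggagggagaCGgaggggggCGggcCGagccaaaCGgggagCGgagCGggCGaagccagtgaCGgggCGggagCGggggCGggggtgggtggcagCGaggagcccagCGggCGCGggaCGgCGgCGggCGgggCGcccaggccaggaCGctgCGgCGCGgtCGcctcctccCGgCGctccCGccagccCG
Olig2: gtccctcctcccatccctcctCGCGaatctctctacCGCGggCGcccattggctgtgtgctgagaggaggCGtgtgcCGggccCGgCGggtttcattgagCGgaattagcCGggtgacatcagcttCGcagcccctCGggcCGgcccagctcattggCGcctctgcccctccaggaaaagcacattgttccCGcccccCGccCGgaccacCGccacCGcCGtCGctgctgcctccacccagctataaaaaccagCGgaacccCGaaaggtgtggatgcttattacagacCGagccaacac
Pax7: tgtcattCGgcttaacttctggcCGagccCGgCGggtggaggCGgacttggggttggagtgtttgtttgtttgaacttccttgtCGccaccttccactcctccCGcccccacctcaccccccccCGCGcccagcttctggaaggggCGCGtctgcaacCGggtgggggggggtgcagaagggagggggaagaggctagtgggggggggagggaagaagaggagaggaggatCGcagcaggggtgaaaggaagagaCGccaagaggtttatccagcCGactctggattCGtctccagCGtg
Zic1: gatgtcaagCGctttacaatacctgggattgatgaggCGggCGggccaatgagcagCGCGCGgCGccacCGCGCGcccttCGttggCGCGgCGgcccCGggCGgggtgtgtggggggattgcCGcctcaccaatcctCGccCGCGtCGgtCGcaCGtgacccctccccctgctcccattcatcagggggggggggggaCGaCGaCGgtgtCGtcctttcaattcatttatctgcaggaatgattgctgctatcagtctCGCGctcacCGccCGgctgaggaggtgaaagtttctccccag
Sox1: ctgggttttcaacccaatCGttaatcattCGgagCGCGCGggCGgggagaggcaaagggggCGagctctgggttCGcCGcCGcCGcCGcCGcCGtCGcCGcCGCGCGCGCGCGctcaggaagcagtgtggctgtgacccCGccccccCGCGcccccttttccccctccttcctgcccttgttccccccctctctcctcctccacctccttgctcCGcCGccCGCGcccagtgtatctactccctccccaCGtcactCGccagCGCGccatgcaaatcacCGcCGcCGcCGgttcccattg
The windows held 34 CG dinucleotides for Lhx2, 25 for Olig2, 17 for Pax7, 31 for Zic1 and 37 for Sox1. Over all 32851 promoters of the table the median was 7 with quartiles of 3 and 20, and 94.6% held at least 1. All 9 annotated promoters of 7 of the genes lay between the 67.8th and 94.7th percentile of CG number, and En2 had none in the table. The Sox1 window, with the most CG dinucleotides of these promoters, was thus one without a listed peak. Others without one were the Gbx2 promoter, with 27 CG dinucleotides, and the second promoters of Lhx2, with 29, and of Pax6, with 16.

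A peak list shows where the authors' caller placed a peak in 1 library, and a gene without a listed peak was not read as lacking the mark. Peak numbers ran from 13818 to 32874 for H3K4me2, over 39.1 to 81.0 Mb, and from 5990 to 15435 for H3K4me1, over 13.1 to 37.1 Mb. Sequencing depth is unknown, since no read totals were used. The targeted gene, Prdm16, had no H3K4me2 peak over its span in either EB KO list, against 3 and 4 in the EB WT lists, and had 11 and 13 in the ES KO lists against 8 and 6 in the ES WT lists. The sources do not place the deletion, so these peaks check no genotype label. Of the defining ES cell genes, Pou5f1 and Nanog had no H3K4me2 peak within 10 kb of either end in any of the 4 ES lists, although 5 to 7 of 12 pluripotency markers had such a peak in each of these lists. In EB, Pou5f1 had such a peak in both KO and both WT lists and Nanog in 1 KO and 1 WT list. For H3K4me1, Nanog and Prdm14 had one in all 4 EB lists and in no ES list. Zfp42 and Tfcp2l1 ran the other way, with an H3K4me1 peak in all 4 ES lists and in no EB list. Dppa3 and Nr0b1 had one in some ES lists only, and Pou5f1, Klf4 and Esrrb in some EB lists only. The peak lists therefore do not bear out the ES and EB labels by Pou5f1 and Nanog. The pluripotency markers as a set ran both ways and do not settle the labels, a limit to every stage comparison below.

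In EB, H3K4me2 peaks were listed at more of the 8 genes in KO than in WT. Within 10 kb of a gene end, 6 and 6 of the 8 genes had an H3K4me2 peak in the EB KO lists, against 1 and 1 in the EB WT lists. The same lists held a peak at 62.1% and 58.9% of all protein-coding genes in EB KO and at 58.3% and 63.4% in EB WT, so the lists as wholes did not differ in this way. Pax6, Sox1, En2 and Gbx2 had a peak in both EB KO lists and neither EB WT list, which is called KO-only here. This was also the case for 1.96% of all protein-coding genes. None of the 8 was WT-only, as were 1.73% of all genes. These counts describe genes chosen with this contrast known, so nothing is read from their number. Leaving out EB WT replicate 2, which belongs to another library series, cannot undo a KO-only call, so the same 4 genes kept it by construction. With the higher-scoring 50% of each list's peaks none of the 8 was KO-only.

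**Figure D1:**
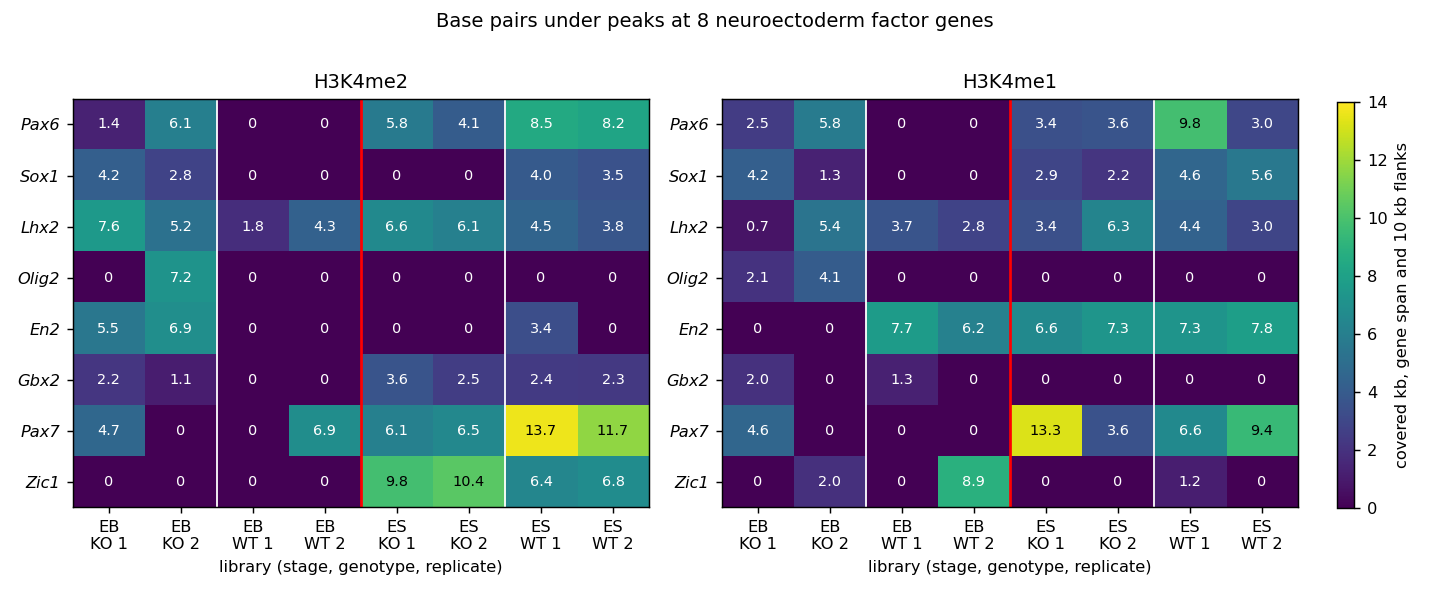
Heat map of base pairs covered by peaks (kb, as colour and as the number in each cell) over each gene span with 10 kb on each side. Genes run down and libraries across, in 1 panel each for H3K4me2 and H3K4me1, with groups in the order EB KO, EB WT, ES KO, ES WT. For H3K4me2 the 2 EB WT cells are at 0 for 6 of the 8 genes, all except Lhx2 and Pax7.

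Sox1 encodes a SoxB1 factor that is among the earliest markers of the neural plate. H3K4me2 peaks covered 4.24 and 2.80 kb of the Sox1 locus in EB KO and 0 kb in both EB WT lists. The ES lists ran the other way, with 0 kb in both ES KO lists and 3.96 and 3.55 kb in the ES WT lists. All of this H3K4me2 lay in 1 region upstream, at chr8:12383484-12389759, which overlaps the long non-coding RNA gene Sox1ot and ends 5.76 kb from Sox1 itself (chr8:12395519-12399555). The same region was thus listed in EB KO and in ES WT and in no other group.

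H3K4me1 at Sox1 covered 4.22 and 1.34 kb in EB KO and 0 kb in both EB WT lists, and it covered 2.94 and 2.17 kb in ES KO against 4.61 and 5.63 kb in ES WT. The groups did not overlap at either stage, and KO was above WT in EB and below WT in ES. One region of it, chr8:12383707-12387896, lay within the bounds of the upstream H3K4me2 region and was KO-only in EB, while the other, chr8:12399140-12403467, reached over the end of the gene and was listed in 1 EB KO list, 1 ES KO list and both ES WT lists.

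Pax6 encodes a paired-box and homeodomain factor of the forebrain, eye and spinal cord. H3K4me2 peaks covered 1.36 and 6.07 kb of the Pax6 locus in EB KO, 0 kb in both EB WT lists, 5.77 and 4.08 kb in ES KO, and 8.52 and 8.19 kb in ES WT. KO was thus above WT in EB and below WT in ES, with no overlap of the groups at either stage. The EB KO peaks shared the region chr2:105658845-105664665, which lies 4.23 kb upstream of Pax6 (chr2:105668896-105698410), overlaps the long non-coding RNA genes Paupar and Pax6os1, and was also listed in all 4 ES lists. A region inside the gene, chr2:105685828-105692110, was listed in both ES WT lists, neither ES KO list and 1 EB KO list.

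Pax6 H3K4me1 peaks covered 2.50 and 5.84 kb in EB KO and 0 kb in both EB WT lists, against 3.39 and 3.63 kb in ES KO and 9.82 and 2.99 kb in ES WT. The 2 EB KO libraries did not share an H3K4me1 region: replicate 1 had its peak over the region inside the gene and replicate 2 over the annotated start. The peak of replicate 2 was among the lowest-scoring of its list, at the 1.74th percentile of score. In ES the genotypes overlapped.

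Lhx2 encodes a LIM-homeodomain factor needed for the eye and the cerebral cortex in mice, and it was the only one of the 8 genes with H3K4me2 peaks in all 8 H3K4me2 lists. They covered 7.56 and 5.21 kb in EB KO, 1.84 and 4.34 kb in EB WT, 6.62 and 6.09 kb in ES KO, and 4.54 and 3.75 kb in ES WT. At both stages the KO lists were above the WT lists without overlap. In EB the genotypes differed in place as well as in extent. The region over the start of Lhx2 (chr2:38336308-38341585) was listed in both EB KO and all 4 ES lists but in neither EB WT list. The EB WT peaks lay only in a region 5.66 kb downstream (chr2:38375396-38380961). That region was listed in 7 of 8 lists, EB KO replicate 1 and all 4 ES lists among them.

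Lhx2 H3K4me1 covered 0.745 and 5.41 kb in EB KO and 3.66 and 2.80 kb in EB WT, and 3.41 and 6.34 kb in ES KO against 4.38 and 2.95 kb in ES WT. The genotypes overlapped at both stages. A downstream H3K4me1 region, chr2:38374893-38377740, was listed in both EB WT lists and in none of the other 6.

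Olig2 encodes a basic helix-loop-helix factor of motor neuron and oligodendrocyte progenitors in the ventral spinal cord. It was the most sparsely marked gene in H3K4me2, with 1 peak of 7.19 kb over the start of the gene (chr16:91219845-91227034), which covered 1.49 kb of its 3.13 kb span, in EB KO replicate 2 and 0 kb in the other 7 lists. H3K4me1 covered 2.06 and 4.09 kb in EB KO and 0 kb in both EB WT lists, all ES KO lists and all ES WT lists. Both marks at Olig2 were thus listed in EB KO libraries only. The H3K4me1 peaks of the 2 EB KO libraries lay apart, 1.39 kb upstream in replicate 1 and 0.586 kb downstream in replicate 2, so no region was shared.

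En2 and Gbx2 act at the midbrain-hindbrain boundary: En2 encodes an Engrailed homeodomain factor of the midbrain and cerebellum, and Gbx2 a homeodomain factor of the anterior hindbrain that opposes Otx2. En2 was the gene whose marks ran opposite ways in EB. H3K4me2 peaks covered 5.53 and 6.93 kb of its locus in EB KO and 0 kb in both EB WT lists, while H3K4me1 peaks covered 0 kb in both EB KO lists and 7.69 and 6.16 kb in EB WT. Part of this was at the same place: the H3K4me2 region chr5:28156996-28160351, 5.35 kb before the lower-coordinate end of En2 (chr5:28165696-28172190), lies within the H3K4me1 region chr5:28156692-28164377. The H3K4me2 region was KO-only and the H3K4me1 region WT-only in EB. The gene table gives no strand for En2, so upstream and downstream were not assigned.

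In ES cells En2 had no H3K4me2 peak in either KO list, against 3.36 and 0 kb in the WT lists, and its H3K4me1 covered 6.63 and 7.31 kb in ES KO and 7.27 and 7.83 kb in ES WT. H3K4me1 at En2 was thus listed in every group except EB KO, and its ES genotypes overlapped.

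H3K4me2 at Gbx2 covered 2.21 and 1.11 kb in EB KO, 0 kb in both EB WT lists, 3.62 and 2.53 kb in ES KO, and 2.38 and 2.32 kb in ES WT. The 6 lists with a peak shared 1 region 6.38 kb upstream, chr1:89937560-89943679, so EB WT was the group without it. H3K4me1 at Gbx2 was sparse, with 1.97 and 0 kb in EB KO, 1.29 and 0 kb in EB WT, and 0 kb in all 4 ES lists. At the upstream position it ran against H3K4me2: an H3K4me1 region, chr1:89939887-89944053, was listed in both EB WT lists, in 1 of them beyond the 10 kb window, and in neither EB KO list.

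Pax7 and Zic1 mark the dorsal neural tube and neural crest, and Zic1, a zinc finger factor, is also expressed in the early neural plate. H3K4me2 peaks at Pax7, the longest of the 8 genes at 96.5 kb, covered 4.68 and 0 kb in EB KO, 0 and 6.88 kb in EB WT, 6.11 and 6.55 kb in ES KO, and 13.7 and 11.7 kb in ES WT. The EB genotypes overlapped, while in ES the KO lists were below the WT lists. The ES difference came from the end of the gene that holds its start: the regions chr4:139829412-139835173, over the promoter, and chr4:139819847-139825940 were listed in both ES WT lists and neither ES KO list, while a region further inside, chr4:139766510-139772617, was in all 4.

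Pax7 H3K4me1 covered 4.64 and 0 kb in EB KO, 0 kb in both EB WT lists, 13.3 and 3.55 kb in ES KO, and 6.65 and 9.42 kb in ES WT. The ES genotypes overlapped in extent, though 1 region inside the gene, chr4:139821109-139826229, was WT-only and another, chr4:139746730-139748291, KO-only.

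Zic1 was the gene listed only in ES cells for H3K4me2, with 0 kb in both EB KO and both EB WT lists, 9.79 and 10.4 kb in ES KO, and 6.44 and 6.82 kb in ES WT. The shared region, chr9:91360103-91367710, runs over both Zic1 and its overlapping neighbour Zic4, so these peaks cannot be assigned to 1 of them. H3K4me1 at Zic1 covered 0 and 1.96 kb in EB KO, 0 and 8.89 kb in EB WT, 0 kb in both ES KO lists, and 1.20 and 0 kb in ES WT, with the genotypes overlapping at both stages.

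**Figure D2:**
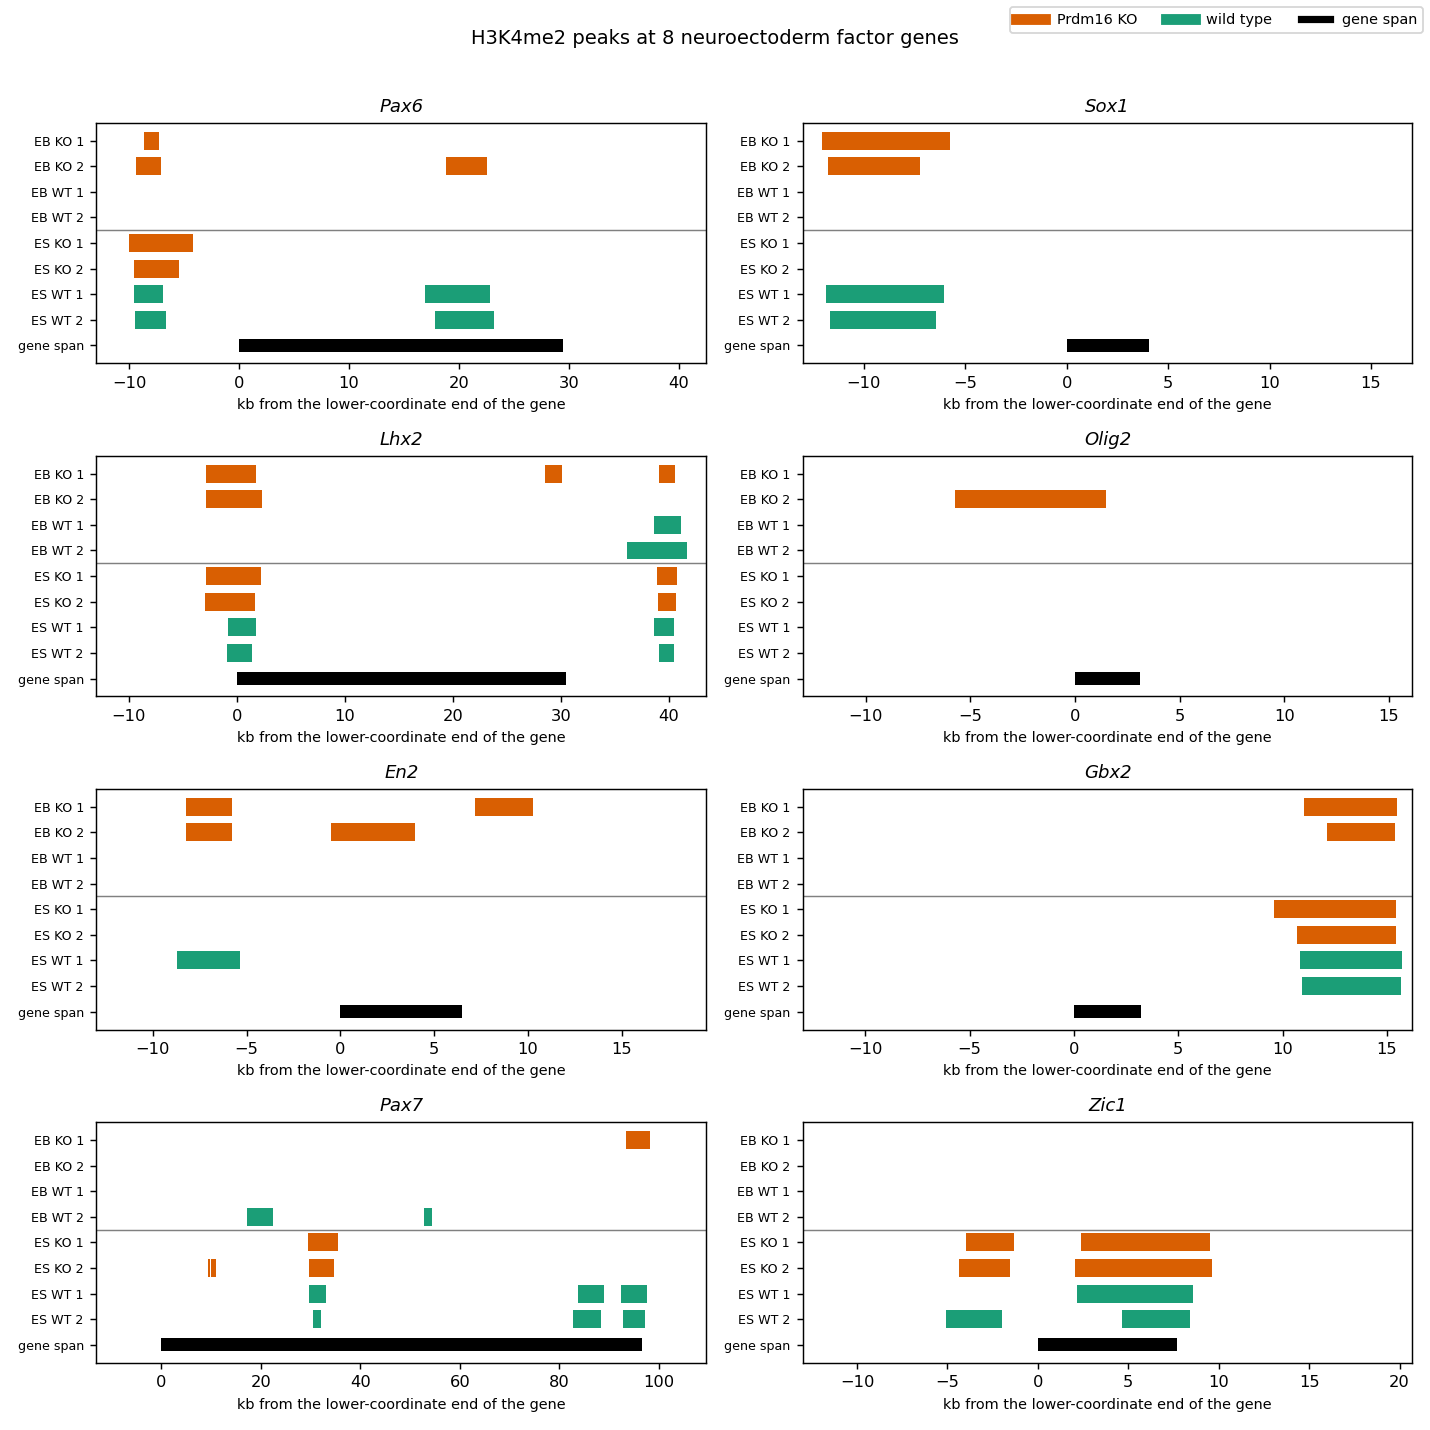
Position of every H3K4me2 peak at the 8 genes, with distance in kb from the lower-coordinate end of the gene on the horizontal axis and 1 row per library, from EB KO at the top to ES WT at the bottom; orange bars are KO peaks, green bars WT peaks and the black bar is the gene span. The EB WT rows hold 4 peaks in all, against 17 in the EB KO rows.

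The 8 loci held 59 H3K4me2 peaks over the 8 lists, of which 17 were in EB KO, 4 in EB WT, 16 in ES KO and 22 in ES WT. Merged where they overlapped, they formed 20 regions, 13 of them over a gene span and 8 listed in 1 library only. When only the 4 EB lists were merged, 5 of the 14 resulting regions were KO-only, against 2.56% of 22534 regions genome-wide. These 5 were the upstream regions of Pax6, Sox1 and Gbx2, the En2 region outside the gene and the region over the Lhx2 start. Merged over the 4 ES lists, 4 of 14 regions were WT-only, against 1.83% of 38049 genome-wide, and none was KO-only, against 11.7%. No EB region was WT-only, against 6.46%. The ES WT-only regions were the one upstream of Sox1, the one inside Pax6 and the pair at the start of Pax7.

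The score of a peak was used only to rank peaks within 1 list, and the ranks put most of these peaks in the lower part of their lists. In EB KO the 17 H3K4me2 peaks had a median at the 37.5th percentile of score and 14 were below the median of their list. In EB WT all 4 were below it, with a median at the 18.3rd percentile. The ES medians were the 38.0th percentile in KO and the 49.6th in WT.

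H3K4me1 gave a mixed picture in EB. Within 10 kb of a gene end, 5 and 5 of the 8 genes had an H3K4me1 peak in the EB KO lists and 3 and 3 in the EB WT lists, although the EB KO lists were shorter, with 8943 and 5990 peaks against 14082 and 13260. Of all protein-coding genes, 20.01% and 14.5% had such a peak in EB KO and 28.6% and 26.8% in EB WT. Pax6, Sox1 and Olig2 were KO-only, against 1.11% of all protein-coding genes, and En2 was WT-only, against 6.16%. None of the 4 was called when the lower-scoring 50% of peaks was left out. Lists of equal length gave a different set, with Sox1 and Lhx2 KO-only and Pax6, Olig2 and En2 not called. By regions, 1 of 15 was KO-only (2.46% of 24734 genome-wide), upstream of Sox1, and 3 were WT-only (14.2%), at Lhx2, En2 and Gbx2. In ES, 1 of 16 regions was KO-only (4.75% of 26140 genome-wide) and 1 WT-only (4.32%), both inside Pax7.

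**Figure D3:**
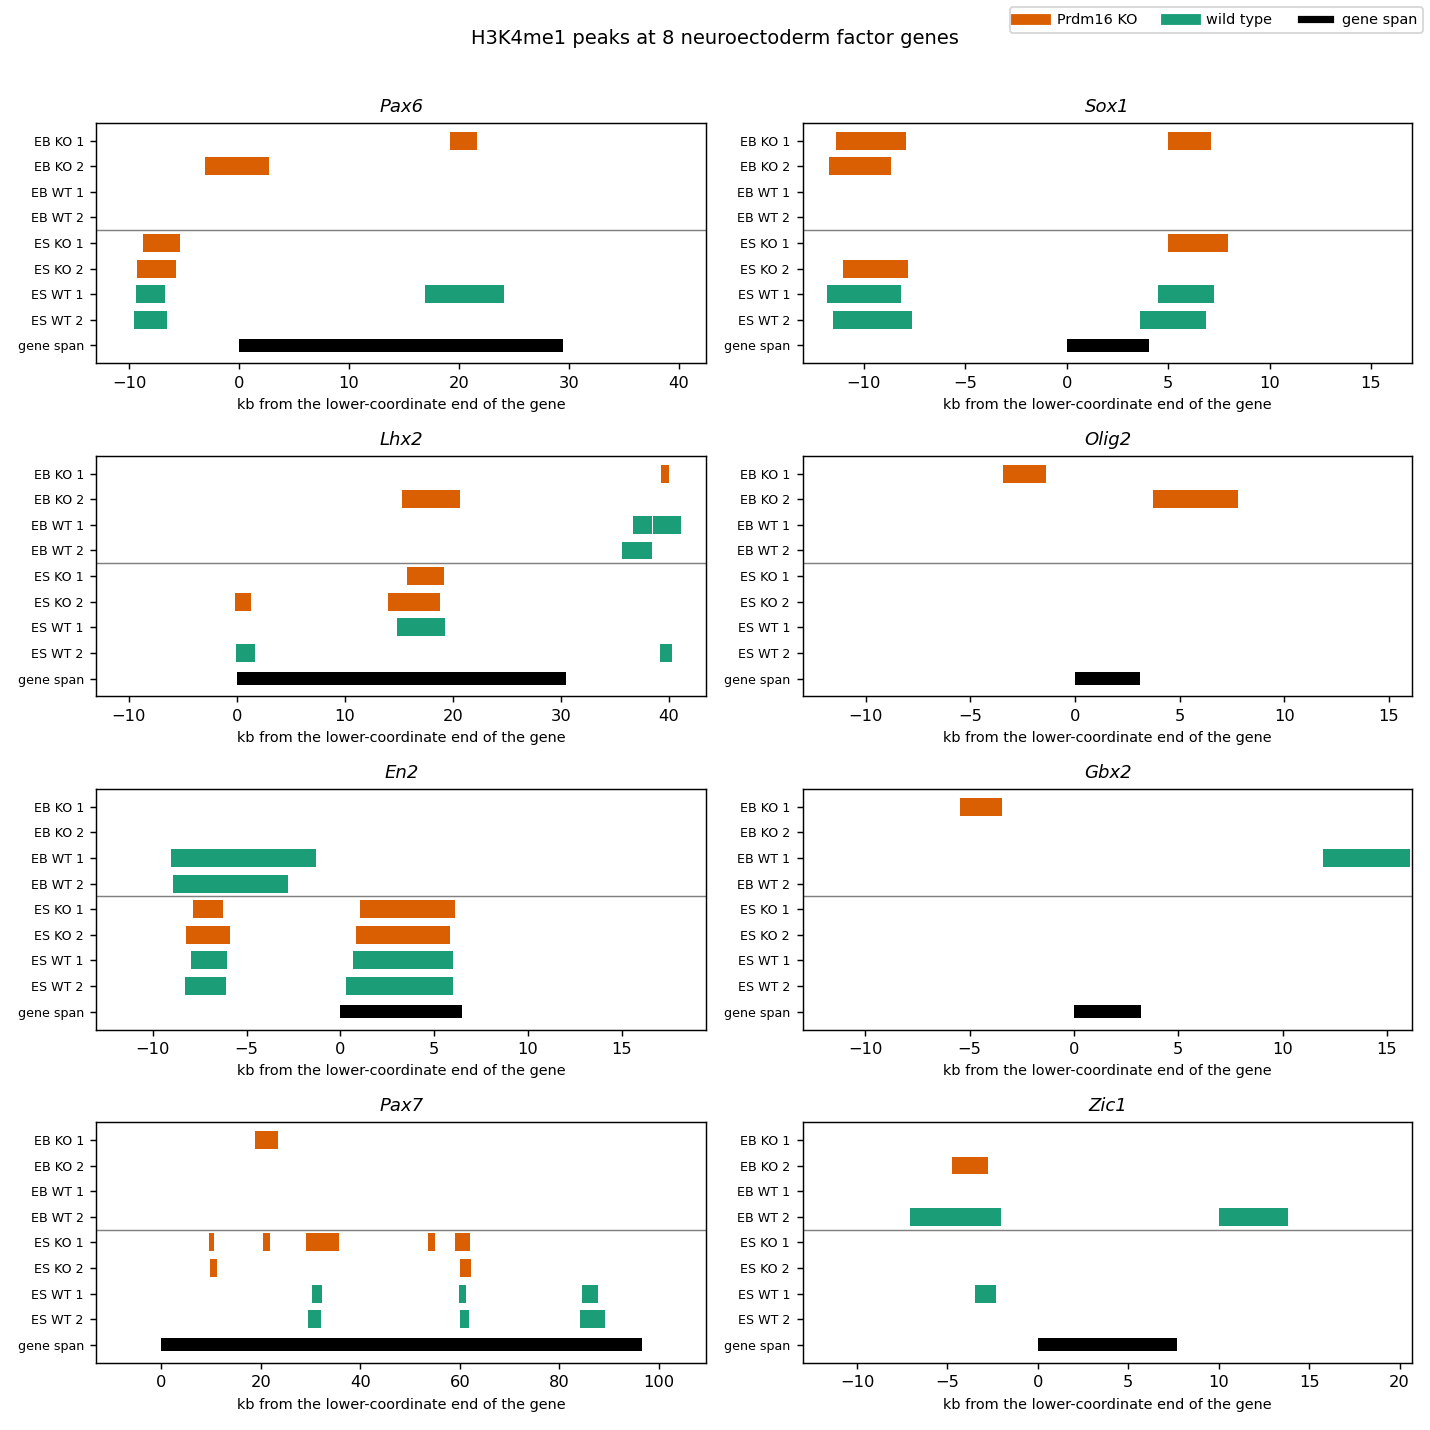
Position of every H3K4me1 peak at the 8 genes, drawn as for H3K4me2: distance in kb from the lower-coordinate end of the gene across, 1 row per library from EB KO at the top to ES WT at the bottom, orange for KO and green for WT. The EB KO rows hold 12 peaks and the EB WT rows 8; the En2 peaks are absent from the EB KO rows and present in every other group.

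Measured as covered base pairs, KO was above WT without overlap in EB H3K4me2 at Pax6, Sox1, Lhx2, En2 and Gbx2, against 4.07% of all protein-coding genes. None of the 8 was below, against 38.9% of all genes. For EB H3K4me1, Pax6, Sox1 and Olig2 were above (2.96% of all genes) and En2 was below (15.8%). On the scale of log2(covered bp + 100), the median difference of KO minus WT in EB H3K4me2 was 3.58 over the 8 genes, of which 6 were above 0 and 1 below, against -0.20 over all 21887 protein-coding genes, of which 3052 were above 0 and 12434 below. The size of the median over the 8 genes depends on the added 100 bp, since 6 of them were listed at 0 in both EB WT lists. For EB H3K4me1 the medians were 1.53 over the 8 genes and 0 over all genes.

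The ES lists were also known when the genes were chosen, so their genotype differences are a description too. A two-sided exact permutation of the genotype labels, with 6 assignments, cannot give a p below 0.333, so no difference could pass a threshold of 0.05 at these or any other genes, and no p is given for single genes. H3K4me2 was lower in both KO than in both WT lists at Pax6, by -0.77 on the log2 scale, and at Pax7, by -0.99. It was higher in both KO lists at Lhx2, by 0.61, at Zic1, by 0.60, and at Gbx2, by 0.35. The Gbx2 value was 0.10 without ES KO replicate 1 and 0.60 without ES KO replicate 2. The value for Lhx2 was -0.07 with the higher-scoring 50% of peaks and that for Zic1 was -2.98 with lists of equal length, so their direction depended on which peaks were kept. Sox1, listed at 0 in both KO lists, was also lower without overlap. Below-WT values without overlap, as at Pax6, Sox1 and Pax7, were found at 5.31% of all genes, and above-WT values, as at the other 3, at 33.9%.

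For ES H3K4me1, only Sox1 separated the genotypes, with KO below WT by -0.98 on the log2 scale, a direction seen at 7.33% of all genes. None of the 8 was above WT without overlap, against 9.64%. By presence of a peak within 10 kb of a gene end, Sox1 was WT-only for H3K4me2 in ES, against 0.909% of all genes, and no gene was KO-only, against 2.25%. Without ES KO replicate 2, of another library series, Pax7 was WT-only too, and without ES WT replicate 2 En2 was. For H3K4me1 in ES none was KO-only (2% of all genes) or WT-only (2.32%). KO above WT in EB together with KO below WT in ES was found for H3K4me2 at Pax6 and Sox1, against 0.375% of all genes, and for H3K4me1 at Sox1, against 0.279%; the reverse was found at none of the 8 for either mark, against 18.4% and 2.63%. The difference between stages was not tested.

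Between stages, H3K4me2 was called at 5 of these genes in WT and at 3 in KO. In WT, 5 of the 8 genes (Pax6, Sox1, Gbx2, Pax7 and Zic1) had H3K4me2 peaks within 10 kb of an end in both ES lists and neither EB list, against 4.63% of all protein-coding genes, and none had the reverse, against 2.56%. In KO, only Zic1 was ES-only, against 7.45%, while Sox1 and En2 were EB-only, against 2.74%. For H3K4me1 in WT, Pax6, Sox1 and Pax7 were ES-only (9.89% of all genes) and none EB-only (4.74%). In KO, En2 and Pax7 were ES-only (13.6%) and Olig2 was EB-only (2.23%). These stage comparisons use the EB lists by which the genes were chosen.

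Both marks were KO-only in EB at Pax6 and Sox1, and the marks went opposite ways at En2. A KO-only H3K4me2 peak over an annotated start in EB was found at Lhx2 alone of the 7 genes with a promoter in the table, against 1.41% of all promoters, and a WT-only one in ES at Pax7 alone, against 1.04%. No other promoter of the 8 genes was called for either mark.

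The calls moved with the window around the genes. With peaks counted within 2500 bp of a gene end, Lhx2 and En2 were KO-only for H3K4me2 in EB (2.05% of all genes) and Olig2 for H3K4me1 in EB (0.58%), and none was WT-only in EB for H3K4me2 (1.64%) or H3K4me1 (4.14%). In ES, Pax7 was WT-only for H3K4me2 (1.22%), and none was KO-only for H3K4me2 (1.91%) or called for H3K4me1 (1.31% KO-only and 1.79% WT-only). With the gene span alone, Lhx2 was KO-only for H3K4me2 in EB (1.71%) and Pax6 for H3K4me1 in EB (0.749%), and none was WT-only in EB for H3K4me2 (1.8%) or H3K4me1 (4.83%). In ES, Pax6 was WT-only over the span for H3K4me2 (1.11%), and none was KO-only for H3K4me2 (2.01%) or called for H3K4me1 (1.54% KO-only and 1.75% WT-only).

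Among 48 other textbook neural plate, patterning and progenitor genes, listed with earlier results of these data known, 35 and 35 had an H3K4me2 peak within 10 kb of a gene end in the EB KO lists, against 12 and 18 in the EB WT lists. In all, 13 of the 48 were KO-only, or 27.1% against the 1.96% of all genes, among them Sox2, Otx2, Six6, Emx2, En1, Wnt1, Nkx2-2, Pou3f3, Atoh1, Gli3 and Sox21. They include Sox2, a SoxB1 factor related to Sox1, Otx2, which marks the forebrain and midbrain, Emx2 of the telencephalon, and the proneural factor Atoh1. None was WT-only, against 1.73% of all genes. With the higher-scoring 50% of peaks 6 of the 48 were KO-only: Pax2, Nkx2-1, Zic5, Pou3f3, Atoh1 and Zfp521. Of the 13 genes, only Pou3f3 and Atoh1 were thus still called. The median difference over the 48 genes was 1.58 on the log2(covered bp + 100) scale.

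For H3K4me1 in EB, 6 to 17 of the 48 genes had a peak in the EB KO lists and 22 to 23 in the EB WT lists. All protein-coding genes ran the same way in these lists, as given above, so the direction is not particular to the 48 genes. Only Pou3f3 was KO-only, or 2.08% of the 48 against 1.11% of all genes. WT-only were 8, or 16.7% against 6.16% of all genes: Sox3, Rax, Nkx6-2, Nkx2-1, Olig3, Hes3, Neurog2 and Zfp521. Without EB KO replicate 2, the library with the fewest H3K4me1 peaks, 6 were KO-only, and without EB WT replicate 1 or without EB WT replicate 2, 13 were WT-only in each case. In ES cells, Nkx2-2 and Barhl2 were WT-only for H3K4me2, or 4.17% of the 48 against 0.909% of all genes. None was KO-only for H3K4me2, against 2.25%. For H3K4me1 in ES, Barhl2 was WT-only (2.08% against 2.32% of all genes) and 1 gene was KO-only (2.08% against 2%), both near the share of all genes. Without ES KO replicate 2, which belongs to another library series, 5 of the 48 were WT-only for H3K4me2. Leaving out a list can only keep or raise such counts.

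**Figure D4:**
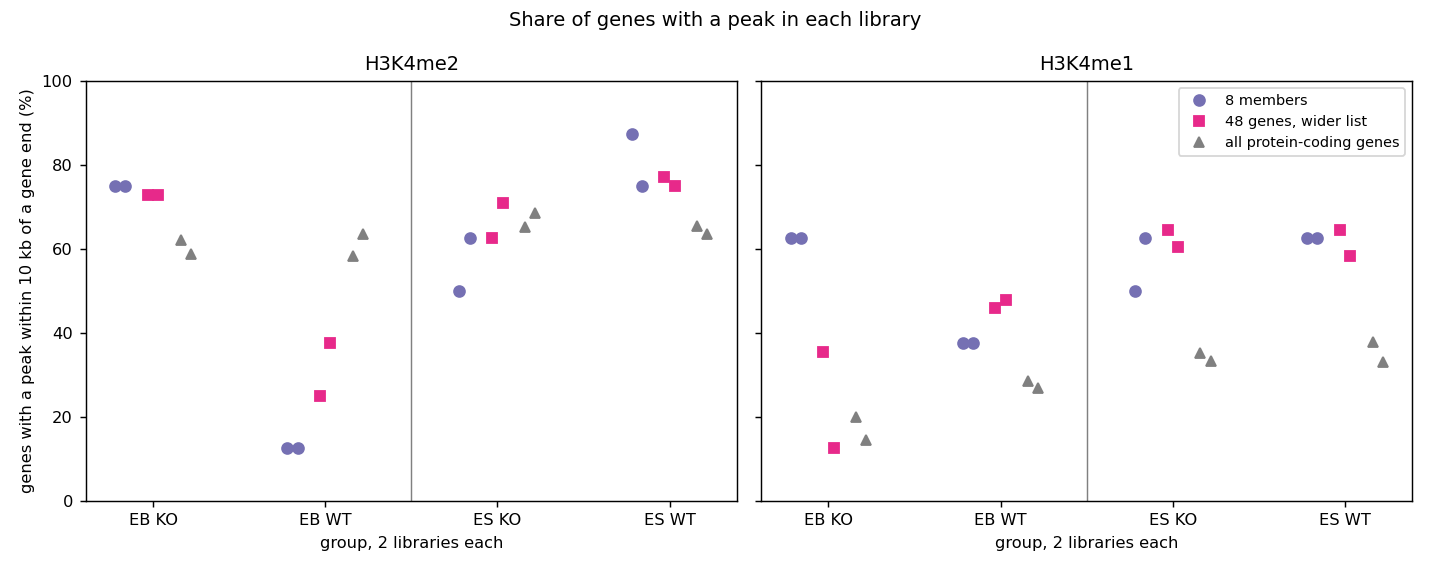
Share of genes with a peak within 10 kb of a gene end (percent, vertical axis) in each library, for H3K4me2 and H3K4me1, with circles for the 8 genes, squares for the 48 other neuroectoderm genes and triangles for all 21887 protein-coding genes; groups run EB KO, EB WT, ES KO, ES WT. For H3K4me2 the 8 genes lie below all genes in both EB WT lists (1 of 8 each) and above them in both EB KO lists (6 of 8 each).

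The closest relatives of the 8 genes did not all follow them. Of 15 paralogs and neighbours, Pax5, Sox2 and En1 were KO-only for H3K4me2 in EB, or 20% against 1.96% of all genes. None of the 15 was WT-only, against 1.73%. For H3K4me1 in EB, Pax5 was KO-only (6.67% against 1.11% of all genes), while Sox3, Olig1 and Olig3 were WT-only (20% against 6.16%). Olig1 lies 41092 bp from Olig2, where H3K4me1 was listed in EB KO and not in EB WT, so these adjacent genes were called in opposite directions. Pax2, Pax8, Olig1 and Zic5 had H3K4me2 peaks in all 8 lists, as did Lhx2 among the 8 genes.

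Markers of other cell types that EB can hold were counted in the same H3K4me2 lists, by a peak within 10 kb of a gene end. Of 10 primitive streak and mesoderm markers, 5 and 5 had a peak in EB KO, covering 18.2 to 29.6 kb in sum, against 5 and 6 in EB WT, covering 12.6 to 35.4 kb; Gsc, Hand1 and Pdgfra were at 0 in all 4 EB lists. Of 8 endoderm markers, 4 and 4 had one in EB KO (17.0 to 23.4 kb) against 3 and 3 in EB WT (16.1 to 18.2 kb), with Gata6, Foxa2 and Afp at 0 in all 4. Of 8 fibroblast markers, 6 and 6 had one in EB KO (32.3 to 36.9 kb) against 5 and 7 in EB WT (22.1 to 37.6 kb), with Postn at 0 in all 4. Of the 12 pluripotency markers, 7 and 8 had one in EB KO (32.6 to 38.6 kb) against 5 and 8 in EB WT (17.8 to 31.7 kb), with Esrrb and Tbx3 at 0 in all 4. Summed base pairs of the pluripotency markers were thus higher in both EB KO than in both EB WT lists, narrowly, at 32.6 kb or more against 31.7 kb or less. The numbers of these markers with a peak overlapped. Sox2, one of them, is also among the 48 neuroectoderm genes and was KO-only there. The sums of the mesoderm, endoderm and fibroblast markers overlapped. A different mixture of cell types and a different level of the mark per cell cannot be told apart in bulk libraries, and the part of either in the EB values was not tested.

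No PRDM16 peak was listed within the gene span or 10 kb of it at any of the 8 genes in any of the 8 PRDM16 lists, where 0.525% to 2.06% of all protein-coding genes had one. The PRDM16 lists were short, with 146 to 586 peaks. The nearest PRDM16 peak in any KO list lay 91.8 kb from Pax7, and the nearest in any WT list 98.0 kb from Olig2. Whether the KO peaks are background of the antibody is not known, since the deleted part of Prdm16 is not given. At the other genes the nearest WT peak was 446 kb or more away.

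The 8 genes were unequally alike over the 16 lists. Covered base pairs on the log2 scale, standardised within each mark, correlated with the mean of the other 7 genes with Pearson r = 0.80 for Pax6 and 0.53 for Sox1. The values were 0.31 for Lhx2, 0.25 for Pax7, 0.24 for Gbx2, 0.07 for En2, 0.03 for Zic1 and -0.05 for Olig2. These correlations share libraries and list lengths and are given as a description. Pax6 followed the other genes most closely, and Olig2, Zic1 and En2 hardly at all.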

How the data were processed

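Each library had 1 deposited peak list, called per library, with chromosome, start, end, peak name and a score. That score was deposited by the authors without a stated unit and served only to order or select peaks of 1 library. Bowtie2, SAMtools 1.5, MACS2, bedtools, HOMER 4.10 and deepTools appear in the submitters' processing notes, which name the build mm10 and do not say which step each tool did. The handling of duplicates, control libraries and depth is not stated there.

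Groups and replicate numbers came from the sample titles, which also name 3 library series: 20 libraries share 1, and 2 belong to each of the others. Among the H3K4me2 libraries, ES KO replicate 2 and EB WT replicate 2 are of another series than the rest.

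The 1 mitochondrial peak of each list was set aside. Gene spans and promoters came from RefSeq GRCm38.p6, the build of mm10. Overlap was at least 1 bp. The gene table holds no exons, so positions within a span were not divided into exon and intron. KO-only and WT-only calls were counted beside all 21887 protein-coding genes. ES covered base pairs were compared on the scale of log2(covered bp + 100); the exact permutation test planned for them could not pass its threshold, and the ES lists were known when the genes were chosen, so its p-values are not given. Computation used Python 3.11.15, numpy 2.4.6 and pandas 2.3.3, with figures by matplotlib 3.10.9, and the procedure was tested on simulated data.

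The 8 genes and the other gene lists were chosen with earlier results of these data known. Regions are named where they were KO-only or WT-only at a stage or had the most lists of a gene, and other genes where they were KO-only or WT-only. Some genes that meet this rule are not reported here. The 5 genes of like pattern were those with the highest correlation with the mean of the 8 genes over the 16 lists, with peaks in at least 4 lists and more than 100 kb from any of the 8. Regions and genes outside these rules were named after their values were seen. The alternatives tried were the higher-scoring 50% of peaks, lists of equal length, other windows, at least 500 bp covered, removal of PRDM16 KO sites, a larger added constant, peak numbers, pairing by replicate number, and leaving out each library. The window of the gene span with 10 kb flanks for calls, and all alternatives for the list of 48 genes, were chosen after seeing the data.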

Additional observations from a re-analysis of the deposited data

Results flagged for a closer look

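The KO minus WT difference in covered base pairs had opposite signs in EB and ES cells in every library of 3 results. H3K4me2 at Pax6 had a mean difference of 3.71 kb in EB and -3.43 kb in ES cells, 7.14 kb apart. H3K4me2 at Sox1 had 3.52 kb in EB and -3.75 kb in ES cells, 7.27 kb apart. H3K4me1 at Sox1 had 2.78 kb in EB and -2.56 kb in ES cells, 5.34 kb apart. These differences between stages were not tested, and the EB values are of genes chosen with them known. No group had 4 or more libraries, so single libraries were not examined as outliers.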

How the results depend on the processing

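Of 300 alternative values besides leaving out 1 library, 3 reversed, 44 moved, and 253 did neither. For a count this meant staying within 1.5 times of the main count, and for a log2 value only not taking the opposite sign. Log2 values that fell to 0 are thus among the 253. Examples for ES H3K4me2 are Sox1 and En2 with 2500 bp flanks and Zic1 with the higher-scoring 50%. Values that were 0 throughout, as at Olig2, and those with the replicate number as a block, which cannot change, are among them too. A count that stayed need not hold the same genes. The ES H3K4me2 WT-only gene was Pax7 within 2500 bp and Pax6 over the span, in place of Sox1, and the ES-only H3K4me2 gene in KO was Lhx2 with the higher-scoring 50%, in place of Zic1. Lists of equal length gave Sox1 and Lhx2 as KO-only for EB H3K4me1 and Lhx2 as EB-only for H3K4me1 in KO, where the gene over the span was Pax6, in place of Olig2. The ES-only H3K4me1 genes in WT were Pax6, En2 and Pax7 with the higher-scoring 50% and with equal length, and Lhx2, En2 and Pax7 over the span, in place of Pax6, Sox1 and Pax7. With the higher-scoring 50% of peaks, the EB KO-only counts were 0 for H3K4me2 and 0 for H3K4me1, the EB H3K4me1 WT-only count was 0, EB-only genes in KO were 0 for either mark, ES-only genes were 3 for H3K4me2 in WT and 1 for H3K4me1 in KO, and Lhx2 H3K4me2 in ES reversed to -0.0698. With lists of equal length, 2 genes were WT-only for ES H3K4me2, 0 for EB H3K4me1, 0 were ES-only for H3K4me2 in KO, 3 in WT and 1 for H3K4me1 in KO, and Zic1 H3K4me2 in ES reversed to -2.98. Within 2500 bp, 2 were KO-only for EB H3K4me2, 1 for EB H3K4me1, 0 WT-only for EB H3K4me1, 1 EB-only for H3K4me2 in KO, 3 ES-only in WT, and 1 ES-only for H3K4me1 in KO and in WT. Over the span, the KO-only counts in EB were 1 for each mark, the WT-only count for EB H3K4me1 was 0, EB-only H3K4me2 in KO was 0, ES-only was 3 for H3K4me2 in WT and 1 for H3K4me1 in KO. With at least 500 bp covered, 1 gene was WT-only for ES H3K4me1 and 1 ES-only for H3K4me1 in KO, as it was with 10 kb flanks on the span. Without the library of another series, 2 were WT-only for ES H3K4me2. By number of peaks, Pax7 H3K4me1 in ES reversed to 0.0850. The causes of these shifts were not tested.

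Over the 48 other genes, the higher-scoring 50% gave 6 KO-only for EB H3K4me2, 0 KO-only and 5 WT-only for EB H3K4me1, and 0 WT-only for either mark in ES. Equal length gave 0 KO-only and 4 WT-only for EB H3K4me1 and 2 WT-only for ES H3K4me1. Within 2500 bp, 0 were KO-only for H3K4me1 at either stage. Over the span, 4 were WT-only for ES H3K4me2, 4 for EB H3K4me1 and 0 KO-only for ES H3K4me1. ES H3K4me2 WT-only counts were 1 with at least 500 bp covered and 5 without the library of another series.

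A call asks for a peak in every list of 1 group and in no list of the other. Leaving out a list can thus only keep or raise a count, so the ranges of counts below do not measure stability. Leaving out 1 library at a time, KO-only counts of the 8 genes ranged from 4 to 5 for EB H3K4me2 and stayed at 3 for EB H3K4me1. WT-only counts ranged from 1 to 2 for ES H3K4me2 and from 0 to 1 for ES H3K4me1. EB-only counts ranged from 2 to 3 for H3K4me2 in KO, 1 to 2 for H3K4me1 in KO and 0 to 1 for H3K4me1 in WT, and ES-only H3K4me2 in WT from 5 to 6. For the 48 genes KO-only counts ranged from 15 to 18 (EB H3K4me2), 1 to 6 (EB H3K4me1), 0 to 1 (ES H3K4me2) and 2 to 5 (ES H3K4me1), and WT-only counts from 0 to 1 (EB H3K4me2), 8 to 13 (EB H3K4me1), 3 to 5 (ES H3K4me2) and 2 to 5 (ES H3K4me1). ES log2 values for H3K4me2 kept their sign at Gbx2 (0.10 to 0.60), Lhx2 (0.48 to 0.74), Zic1 (0.56 to 0.65), Pax6 (-1.01 to -0.53) and Pax7 (-1.10 to -0.88). Those for H3K4me1 ranged from -0.0732 to 0.80 at Lhx2, -1.46 to 0.22 at Pax6 and -1.13 to 0.74 at Pax7, so their direction rested on single libraries (ES KO replicate 2 at Lhx2 and Pax7, ES WT replicate 1 at Pax6 and ES WT replicate 2 at Pax7).

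The replicate numbers of the labels do not show that libraries were made in pairs. With the replicate number as a block, the exact test over 4 assignments cannot go below p = 0.5 in any of 16 results, so it says nothing about their stability. Peak lists hold no reads, so depth and background limit every value to an unknown extent.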

Other observations

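Genes outside the list were ranked by how closely their covered base pairs followed the mean of the 8 genes over the 16 lists. The 5 highest of 13771 candidates were Helt, with Pearson r = 0.87, Onecut2 with 0.87, Arhgef19 with 0.82, Pou3f3 with 0.82 and Atp6v1g2 with 0.82, and 5.22% of candidates had r above 0.5. Helt and Onecut2 encode transcription factors expressed in the nervous system, and Pou3f3 one of neural progenitors, while Atp6v1g2 encodes a subunit of the vacuolar proton pump. All 5 had an H3K4me2 peak in both EB KO lists, neither EB WT list and all 4 ES lists, which is the pattern of Pax6 and Gbx2. The ranking used these same lists, so this shared pattern follows from how the 5 were picked. Of all protein-coding genes, 1.96% were KO-only for EB H3K4me2 within 10 kb of a gene end. For H3K4me1 in EB, Helt and Pou3f3 were listed in both KO lists and neither WT list, Onecut2 in both KO lists and 1 WT list, Arhgef19 in 1 KO list, and Atp6v1g2 in none. The 5 were picked as the extremes of many genes over lists that share libraries and lengths, so the correlations and the peaks of these genes are a description.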
